A study of Mus musculus with 12 samples.

Results

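The genes described here encode the subunits of mitochondrial complexes I to V, together with the assembly factors and 2 other genes whose symbols share the same stems. They were chosen by symbol alone (Nduf, Sdha to Sdhd with Sdhaf, Uqcr, Cox4 to Cox8 and Atp5), which gave 94 of the 20295 genes in the table. Of these, 45 belong to complex I, 6 to complex II, 8 to complex III, 18 to complex IV and 17 to complex V. Subunits account for 83 of the 94 genes and assembly factors for 9 (7 Ndufaf genes and 2 Sdhaf genes), while Atp5s and Atp5sl carry an Atp5 symbol without being structural subunits. All but 2 genes, Cox7b2 and Cox8c, had enough counts to be tested.

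RNA-seq was performed on mature white adipocytes floated out of collagenase-digested epididymal fat (eWAT) of lean male C57/BL6J mice, which were embedded at 50000 cells per well in a hydrogel and kept for 2 days. There were 4 groups of 3 libraries. DMSO cells received vehicle alone, ISO cells received the pan β-adrenergic agonist isoproterenol for 3 h, Lip cells received lipase inhibitors, and Lip+ISO cells received the inhibitors and then ISO for 3 h. According to the study's methods the inhibitors were Atglistatin, which blocks ATGL, and CAY10499, which blocks HSL, so that the design asks how far a β-adrenergic response depends on lipolysis. The agonist is called ISO in the sample titles and is taken as such, although 1 figure legend of the study names the ABHD5 ligand SR-3420 for these cells. No genotype was altered. The labels do not give the age of the mice or say whether replicates came from separate animals or cultures, although the methods speak of independent experiments, so p-values measure the spread between these libraries.

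Complexes I, III and IV pass electrons from NADH and ubiquinol to oxygen and pump protons across the inner mitochondrial membrane, complex II feeds in electrons from succinate, and complex V, the ATP synthase, uses the proton gradient to make ATP. Most subunits are encoded in the nucleus, and their genes are classical targets of NRF1, NRF2 (GABP) and ERRα, which are co-activated by PGC-1α, the product of Ppargc1a. In adipocytes, β-adrenergic stimulation is known both to raise Ppargc1a and to release fatty acids, which are fuel for this chain.

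The 94 genes took 1.34% to 1.54% of the counts of a library, which totalled 22632220 at the shallowest and 43707557 at the deepest. Values below are CPM, the usual read counts relative to the library total, after TMM scaling, and a gene was called changed at an adjusted p of 0.05 or less in edgeR's quasi-likelihood test over 13543 genes. Summed CPM of 8 adipocyte markers lay between 30740 and 45450 in all libraries. Without a replicate block only Lep among them was called with ISO, lower by a log2 fold change of -1.84 alone and -1.67 with inhibitors. This is 12.5% of the list, against 13.9% and 15.8% of all tested genes. With the block Plin1 was also lower in Lip+ISO against Lip, where 20.1% of all tested genes were lower. In Lip+ISO against ISO 0 adipocyte markers were called lower without the block, and 2 with it, Cidec and Plin1 (10.8% of all tested genes). With ISO alone 12.5% of the list had a log2 fold change above 0, against 50.2% of all tested genes. Summed CPM of macrophage markers was 45.0 to 58.4 in DMSO, 89.4 to 134 in ISO, 46.0 to 54.2 in Lip and 54.6 to 102 in Lip+ISO. Fibroblast markers were at 397 to 694 in DMSO and 797 to 1069 in ISO, endothelial markers at 102 to 198 and 246 to 448, and mesothelial markers at 27.6 to 66.1 and 68.7 to 78.9. Between Lip and Lip+ISO these ranges overlapped for fibroblast (556 to 561 and 487 to 651), endothelial (51.9 to 175 and 80.5 to 241) and mesothelial markers (14.8 to 96.0 and 44.3 to 60.3). Muscle markers ranged from 94.8 to 142 in DMSO, 54.4 to 104 in ISO, 126 to 281 in Lip and 49.8 to 87.8 in Lip+ISO. With ISO alone 5 of 6 tested macrophage, 4 of 8 fibroblast, 1 of 7 endothelial and 1 of 7 mesothelial markers were called higher. The last 2 shares were 14.3%, against 12.3% of all tested genes. The counts became 6, 6, 7 and 2 when replicates of the same number were blocked (18.8% of all tested genes). In Lip+ISO against Lip 1, 0, 1 and 1 were called higher (11.5%), and 2, 1, 5 and 1 with the block (15.5%). In Lip+ISO against ISO 0, 4, 1 and 0 were called lower (4.59%), and 1, 5, 6 and 1 with the block (10.8%). No listed marker was at 0 in every library. The part of these shifts in the results below was not tested. In bulk samples, fewer cells of a type and less RNA per cell cannot be told apart.

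The respiratory chain genes barely moved with ISO. Without a replicate block only Atp5d, the δ subunit in the central stalk of the ATP synthase, rose and only Sdhaf1, an assembly factor of complex II, fell. Thus 1 of 92 tested members (1.09%) was called higher, against 12.3% of all tested genes, and 1 was called lower, against 13.9%. When the replicate number was added to the fit as a block, 6 members were called higher and 2 lower, against 18.8% and 19.6% of all tested genes. The further ones were Ndufa1, Ndufa12, Ndufaf4, Ndufb2 and Ndufs4 upwards and Ndufaf3 downwards, with log2 fold changes from -0.31 to 0.26. The median log2 fold change of the members was 0.04, beside 0.00 for all tested genes. By the interval of each gene, a change of more than 0.5 log2 in either direction lay outside the 95% confidence interval for 77 of the 92 members (83.7%), against 35.6% of all tested genes. Without DMSO replicate 2 or without ISO replicate 1, Atp5d was no longer called and 2 members were lower. Without Lip+ISO replicate 1, 4 were higher. Calls over all tested genes were not counted in these leave-out fits. The members were measured at higher levels than most genes, with a median of 84.7 CPM in DMSO against 20.8 CPM over all tested genes.

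When lipolysis was inhibited, ISO changed 8 members, nearly all by small amounts. In Lip+ISO against Lip, 7 members (7.61%) were called higher, against 11.5% of all tested genes, and 1 was called lower, against 15.8%. Those that rose included Atp5d, Ndufa6, Sdhaf2, Ndufb2, Atp5f1 and Uqcrh, and the gene that fell was again Sdhaf1. The replicate block gave 11 members higher and 1 lower, against 15.5% and 20.1% of all tested genes, and kept all 8 calls while adding Atp5h, Cox6c, Ndufa11 and Ndufa12, each higher by 0.19 to 0.23 on the log2 scale. The log2 fold change was above 0 for 79 of the 92 members (85.9%), against 49.5% of all tested genes. The median was 0.12 beside -0.00 for all tested genes. The interval lay within 0.5 log2 of no change for 78 members (84.8%), against 34.7% of all tested genes. No member reached a log2 fold change of 1 in any comparison at this adjusted p. Of all tested genes, 5.68% rose and 1.8% fell by that much with ISO alone, and 4.19% and 3.16% did so with inhibitors present. For Lip against DMSO these shares were 0% and 0.0222%, for Lip+ISO against ISO 0.79% and 1.2%, and for the difference of both ISO responses 0.406% and 0.34%. The number of calls rests on single libraries. Leaving out Lip+ISO replicate 1 gave 23 members higher, whereas leaving out Lip replicate 2 gave 2. Leaving out Lip replicate 3 or Lip+ISO replicate 3 gave 3, and DMSO replicate 3 or Lip+ISO replicate 2 gave 4. Calls over all tested genes were not counted in these fits, so these counts cannot be set beside a share of all genes.

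**Figure D1:**
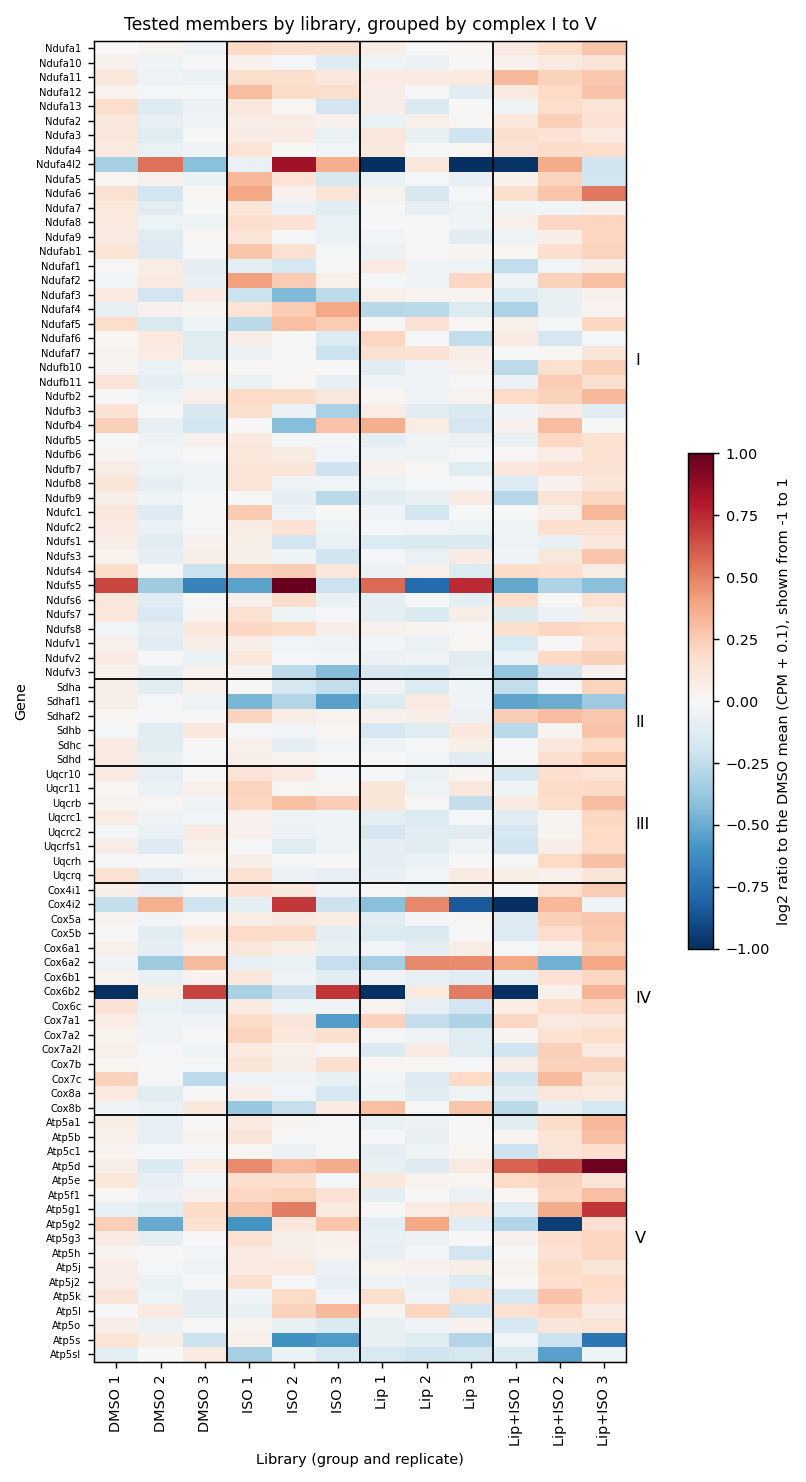
Tested members (91 rows, ordered by complex I to V) in each of the 12 libraries (columns), coloured by the log2 ratio of the CPM plus 0.1 to the DMSO mean and cut at -1 and 1. Most rows stay near 0, Lip+ISO replicates 2 and 3 are raised in most rows while Lip+ISO replicate 1 is not, and the few strongly coloured rows are mostly low genes such as Ndufs5, Cox6b2 and Atp5g2.

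The shift in Lip+ISO was carried by 2 of the 3 libraries. The median log2 ratio of the members to their DMSO mean was 0.06, -0.07 and -0.00 in the 3 DMSO libraries and 0.09, 0.01 and -0.03 in the 3 ISO libraries. It was -0.04, -0.04 and -0.01 in the Lip libraries and -0.03, 0.15 and 0.18 in the Lip+ISO libraries. Lip+ISO replicate 1 therefore lay within the range of the DMSO libraries, and replicates 2 and 3 lay above all others. The members took 1.34% of all counts in Lip+ISO replicate 1, and 1.54% in each of the other two.

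**Figure D2:**
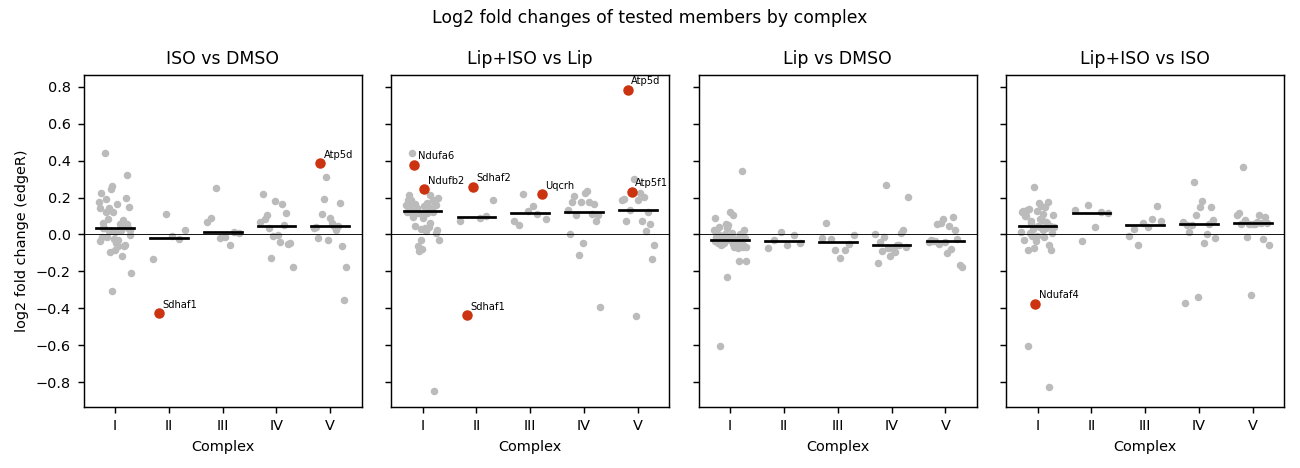
Log2 fold changes from edgeR (vertical axis) of 91 tested members by complex (horizontal axis), in 4 comparisons. Each point is a gene, red points with names passed an adjusted p of 0.05, and black bars are medians over all tested members, which lie between -0.02 and 0.05 for ISO vs DMSO and between 0.09 and 0.13 for Lip+ISO vs Lip.

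Complex I, the NADH dehydrogenase, was measured through 38 subunit genes and 7 assembly factors. With ISO alone none of the 45 genes was called without the block, against 5 higher and 1 lower with it. Of all tested genes, 18.8% were higher and 19.6% lower with the block. An unadjusted p under 0.05 was found for 5 of the 45 (11.1%) and for 10 of all 92 tested members (10.9%), against 38.9% of all tested genes. The median log2 fold change was 0.04, and the summed CPM of the complex was 3526 ± 182 in DMSO and 3584 ± 202 in ISO (SD, n = 3). With inhibitors present, 3 subunits rose with ISO (7.89%, against 11.5% of all tested genes). A log2 fold change above 0 was found for 36 of the 38 (94.7%, against 49.5%), with a median of 0.14. The summed CPM was 3437 ± 43.9 in Lip and 3800 ± 298 in Lip+ISO (SD, n = 3).

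Ndufa6, an accessory subunit of the matrix arm, stood at 75.8, 66.0 and 72.9 CPM in Lip and 83.2, 89.6 and 106 CPM in Lip+ISO. These groups did not overlap (log2 fold change 0.38 ± 0.12, adjusted p = 0.0332). The call was lost in 7 of the 15 leave-out fits, where the adjusted p reached 0.248, and also with library totals alone or without the filter on low counts. Its DMSO values of 82.1, 64.6 and 75.1 CPM and its ISO values of 96.8, 76.1 and 80.7 CPM did overlap.

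Ndufb2, an accessory subunit of the membrane arm, was called with ISO in the presence of inhibitors. It was at 55.9, 53.9 and 57.7 CPM in DMSO and 64.1, 63.4 and 60.4 CPM in ISO, and at 56.5, 54.2 and 57.3 CPM in Lip and 63.8, 65.6 and 69.8 CPM in Lip+ISO. The stimulated libraries lay above the unstimulated ones in both settings, by 0.17 ± 0.07 without inhibitors (adjusted p = 0.0835) and by 0.24 ± 0.07 with them (adjusted p = 0.0148), on the log2 scale. Only the latter passed the test without the block, and both did with it (adjusted p = 0.0476 and 0.00769). The call with inhibitors was lost in 3 of 15 leave-out fits, with an adjusted p of up to 0.189, and with library totals alone, without the filter or with only the groups compared. The difference between both effects was 0.08 ± 0.09 (adjusted p = 0.773).

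Among the core subunits fixed for naming, Ndufs1 and Ndufv1, which carry the iron-sulfur clusters and the FMN of the electron entry path, were not called. Their log2 fold changes were -0.06 ± 0.08 and -0.00 ± 0.08 with ISO alone, and 0.14 ± 0.08 and 0.02 ± 0.08 with ISO in the presence of inhibitors. Ndufa4, which carries a complex I symbol but is now counted with complex IV, was at 212, 189 and 194 CPM in DMSO, and its hypoxia-induced paralog Ndufa4l2 at 12.8, 23.7 and 12.1 CPM. Ndufa4l2 was at 15.5, 29.15 and 20.9 CPM in ISO, 7.42, 17.6 and 6.92 CPM in Lip and 8.17, 20.98 and 14.1 CPM in Lip+ISO. Replicate 2 was the highest library in each group. No comparison of Ndufa4l2 passed the test without the block (0.44 ± 0.41 with ISO, on the log2 scale). With the block it was lower in Lip+ISO than in ISO (log2 fold change -0.64, adjusted p = 0.0209, against 0.412 without it). Replicate numbers were not taken to pair these groups.

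Assembly factors of complex I had a median of -0.03 in Lip+ISO against Lip, and 3 of 7 were above 0 (42.9%, against 49.5% of all tested genes). Ndufaf4, which is among them, was the only member called between Lip+ISO and ISO without the block. It stood at 24.4, 26.5 and 26.2 CPM in DMSO, 28.3, 30.6 and 33.6 CPM in ISO, 21.1, 21.2 and 23.3 CPM in Lip and 20.6, 24.3 and 26.3 CPM in Lip+ISO. With ISO alone its log2 fold change was 0.26 (adjusted p = 0.0804, or 0.0175 with the block). All ISO libraries were thus above all other libraries, and the Lip+ISO to ISO log2 fold change was -0.37 ± 0.10 (adjusted p = 0.0432). That call was lost in 12 of the 15 fits that left out libraries.

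**Figure D3:**
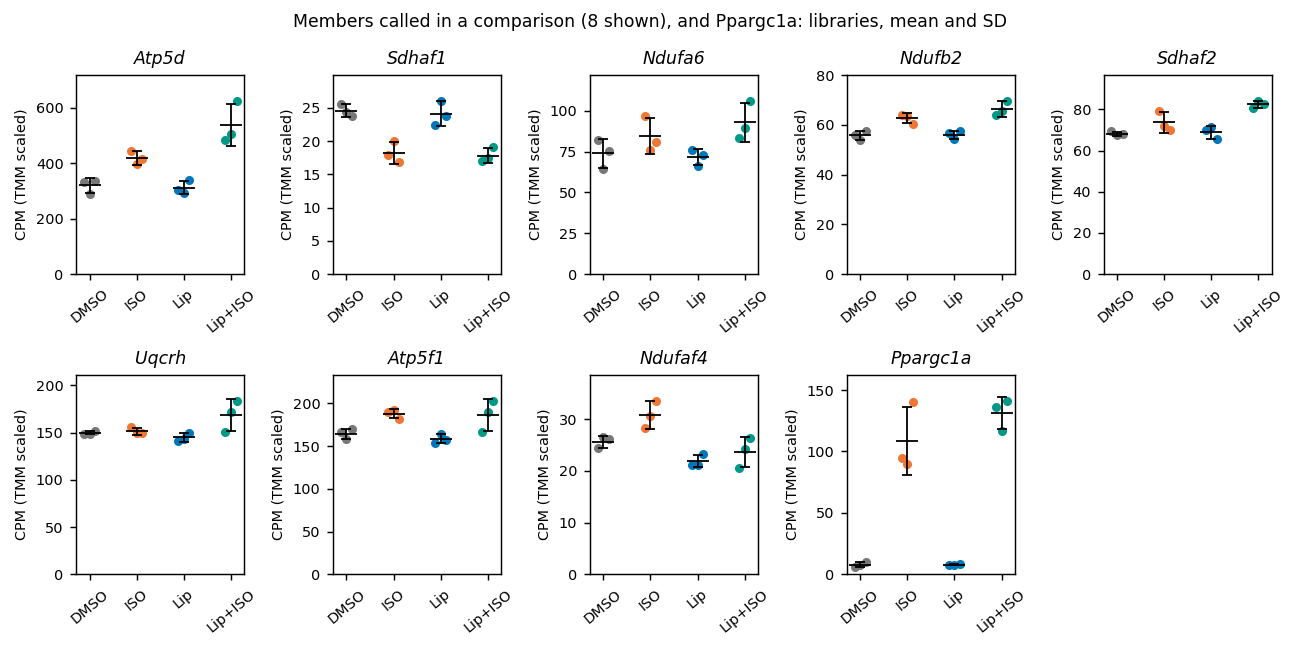
CPM (vertical axes, from 0) of 8 members called in at least 1 comparison and of Ppargc1a in the 4 groups. Points are libraries, and bars give the mean and SD of 3 libraries. Atp5d is higher and Sdhaf1 lower in ISO and Lip+ISO than in DMSO and Lip, whereas Ppargc1a goes from 6.03 to 9.71 CPM in the unstimulated libraries to 89.95 to 141 CPM in the stimulated ones.

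Complex II, the succinate dehydrogenase, has 4 subunits, and none was called in any comparison. Sdha, the flavoprotein, was at 598, 530 and 597 CPM in DMSO and 577, 512 and 484 CPM in ISO. These groups overlap, with a log2 fold change of -0.13 ± 0.11. Sdhb, the iron-sulfur subunit, had log2 fold changes of -0.01 ± 0.12 with ISO and 0.09 ± 0.12 with ISO in the presence of inhibitors. By contrast, both assembly factors of the complex were called, in opposite directions.

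Sdhaf1, which is needed for maturation of the iron-sulfur subunit, stood at 25.6, 24.3 and 23.7 CPM in DMSO and fell to 17.9, 20.04 and 16.8 CPM in ISO. With inhibitors it stood at 22.4, 26.1 and 23.8 CPM without ISO and at 17.0, 17.4 and 19.0 CPM with ISO. None of the stimulated libraries overlapped with an unstimulated one, and the log2 fold changes were -0.43 ± 0.10 (adjusted p = 0.00716) and -0.44 ± 0.10 (adjusted p = 0.00515). The difference between the effects was -0.01, with a 95% confidence interval from -0.31 to 0.29. ISO thus left Sdhaf1 at 0.744 of its DMSO level and, with inhibitors, at 0.739 of its Lip level. The call was lost in 2 of 15 leave-out fits without inhibitors, where the adjusted p reached 0.071, and in 1 of 15 with them, where it reached 0.106.

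Sdhaf2, which is required for the attachment of FAD to Sdha, was at 70.1, 71.2 and 65.5 CPM in Lip and 80.8, 84.3 and 82.4 CPM in Lip+ISO. The Lip+ISO libraries lay above all 9 others, with a log2 fold change of 0.26 ± 0.07 against Lip (adjusted p = 0.0131). That call was lost in 3 of 15 leave-out fits, where the adjusted p reached 0.142, and with library totals alone. With ISO alone it went from 69.3, 67.3 and 68.0 CPM to 79.5, 71.8 and 70.1 CPM, which did not overlap either but had a log2 fold change of 0.11 ± 0.07 (adjusted p = 0.247).

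Complex III, the cytochrome bc1 complex, is covered by 8 subunits. All 8 had log2 fold changes above 0 in Lip+ISO against Lip, from 0.05 to 0.22, against 49.5% of all tested genes. Of the 8, 1 was called higher (12.5%, against 11.5%). This was Uqcrh, the hinge protein, at 141, 143 and 150 CPM in Lip and 150, 172 and 183 CPM in Lip+ISO. Lip+ISO replicate 1 was only just above the highest Lip library, and the call (0.22 ± 0.08, adjusted p = 0.0491) was lost in 13 of the 15 leave-out fits. The catalytic Uqcrfs1, which carries the Rieske iron-sulfur cluster, had log2 fold changes of -0.06 ± 0.10 with ISO and 0.11 ± 0.10 with ISO in the presence of inhibitors. The core protein gene Uqcrc1 was at -0.02 ± 0.09 and 0.13 ± 0.09, respectively.

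Complex IV, the cytochrome c oxidase, had no called member among 16 tested genes in any comparison without the block. With it, Cox6c was called higher in Lip+ISO against Lip (0.23 on the log2 scale, adjusted p = 0.032). Its summed CPM was 2299 ± 112 in DMSO, 2364 ± 132 in ISO, 2252 ± 51.5 in Lip and 2469 ± 212 in Lip+ISO (SD, n = 3). Cox5a and Cox5b, which are nuclear-encoded subunits of the matrix side, had log2 fold changes of 0.08 ± 0.09 and 0.10 ± 0.11 with ISO, and of 0.17 ± 0.09 and 0.21 ± 0.11 with ISO in the presence of inhibitors.

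Complex IV is also where most of the alternative isoforms lie, and in these cells the widely expressed form was always the abundant one. Cox4i1 stood at 633, 571 and 613 CPM in DMSO, and Cox4i2, its hypoxia-linked isoform, at 2.65, 4.07 and 2.74 CPM. Cox6a1 and Cox8a were at 544 and 402 CPM on average, while their heart and muscle isoforms Cox6a2 and Cox8b were at 1.59 and 1.63 CPM. Cox7a2 was at 98.2 CPM, against 1.77 CPM for Cox7a1, which is found in muscle and brown fat, and Cox6b1 at 199 CPM against 0.356 CPM for the testis form Cox6b2. These isoform pairs kept this order in all 12 libraries. The paralog Cox7a2l, which is not taken as part of a pair here, was at 73.0 CPM in DMSO.

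None of these low isoforms was called with ISO. Cox8b, a gene often used to mark brown and beige adipocytes, was at 1.58, 1.55 and 1.76 CPM in DMSO and 1.23, 1.38 and 1.73 CPM in ISO. In Lip it was at 2.03, 1.61 and 1.99 CPM and in Lip+ISO at 1.33, 1.52 and 1.43 CPM, groups that did not overlap but had a log2 fold change of -0.39 ± 0.25 (adjusted p = 0.285). Cox7a1 was at 1.86, 1.72 and 1.72 CPM in DMSO and 2.03, 1.94 and 1.17 CPM in ISO, with a log2 fold change of -0.04 and a 95% confidence interval from -0.64 to 0.56. In 7 of the tested members, namely Ndufs5, Cox4i2, Cox6a2, Cox6b2, Cox7a1, Cox8b and Atp5g2, all group means were under 4 CPM, so that small changes were not detectable at these counts. Among these, Ndufs5 was counted over only 25 bp and Atp5g2 has 3 near-identical copies elsewhere in mm9, so their levels are uncertain. The testis isoform Cox8c had 0 counts in 10 libraries and 1 and 2 counts in the other two.

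Complex V, the ATP synthase, held the largest change among the called members. Atp5d was at 333, 289 and 337 CPM in DMSO and at 444, 396 and 413 CPM in ISO. With inhibitors it was at 303, 293 and 340 CPM without ISO and 482, 505 and 626 CPM with ISO. The stimulated libraries lay above all unstimulated ones in both settings, and the Lip+ISO libraries lay above the ISO libraries. The fold change was 1.31 with ISO alone (log2 0.39 ± 0.11, adjusted p = 0.0193) and 1.72 in the presence of inhibitors (log2 0.78 ± 0.11, adjusted p = 1.3e-04). The difference between these effects was 0.40 ± 0.15 on the log2 scale, which did not pass the test (adjusted p = 0.263). Without the block, neither did the direct comparison of Lip+ISO with ISO (0.36 ± 0.11, adjusted p = 0.0551). With the block that comparison passed (adjusted p = 0.0104), although replicate numbers were not taken to pair these groups. The effect with inhibitors was called in all 15 leave-out fits, whereas the effect of ISO alone was lost in 4 of them, with an adjusted p of up to 0.146.

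Atp5d lies at chr10:79605060-79608563 on the plus strand of mm9. Midn, whose span starts 2471 bp past its end on the same strand, rose in the same comparisons, by 0.70 ± 0.13 with ISO (adjusted p = 0.00208) and by 1.14 with ISO in the presence of inhibitors (adjusted p = 3.4e-05). Midn went from 147 CPM in DMSO to 238 CPM in ISO and from 179 CPM in Lip to 397 CPM in Lip+ISO. Whether reads from 1 of these genes were counted for the other was not tested.

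The catalytic subunits of the ATP synthase were not called. Atp5b, the β subunit, was at 2668, 2427 and 2623 CPM in DMSO and 2795, 2562 and 2585 CPM in ISO, with a log2 fold change of 0.04 ± 0.09. It was at 2531, 2446 and 2569 CPM in Lip and 2632, 2831 and 3159 CPM in Lip+ISO, which did not overlap, with a log2 fold change of 0.19 ± 0.09 (adjusted p = 0.136). Atp5a1, the α subunit, had log2 fold changes of 0.04 ± 0.10 and 0.18 ± 0.10. Atp5f1, subunit b of the peripheral stalk, was at 154, 164 and 158 CPM in Lip and 166, 190 and 203 CPM in Lip+ISO (0.23 ± 0.08, adjusted p = 0.0434), a call that was lost in 13 of 15 leave-out fits. Atp5f1 overlaps the gene Wdr77 on the opposite strand by 751 bp, and Wdr77 had a log2 fold change of -0.08 in the same comparison.

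The c ring of the ATP synthase is encoded by 3 genes that differ only in their import peptides. Atp5g3 had the highest counts at 471, 416 and 444 CPM in DMSO, followed by Atp5g1 at 9.00, 8.73 and 10.8 CPM and Atp5g2 at 0.632, 0.336 and 0.587 CPM. The order was the same per length, at 661, 11.9 and 0.801 CPM per kb. Atp5g2 has 3 near-identical copies elsewhere in mm9, Atp5g1 has 1 and Atp5g3 has 0. The levels of Atp5g1 and Atp5g2 are therefore uncertain, and whether reads were lost to these copies was not tested. The log2 fold changes of Atp5g1 were 0.31 ± 0.19 with ISO and 0.30 ± 0.19 with ISO in the presence of inhibitors, and neither passed the test. Atp5s and Atp5sl, which are not subunits, had log2 fold changes of -0.35 ± 0.22 and -0.17 ± 0.14 with ISO.

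Lipase inhibition without ISO gave no call among the members. None of 92 was called higher or lower in Lip against DMSO, where 0.00738% and 0.0443% of all tested genes were called, and DESeq2 called none either. A single member (1.09%), Ndufaf4, had an unadjusted p under 0.05, against 4.3% of all tested genes. The median log2 fold change was -0.03 beside 0.00 for all tested genes, and 27 of 92 (29.3%) were above 0, against 50.6%. The interval lay within 0.5 log2 of no change for 82 (89.1%), against 56.8%. In Lip+ISO against ISO without the block, 0 members were called higher (4.36% of all tested genes) and 1 lower (4.59%), namely Ndufaf4. With the block 2 were higher and 2 lower, against 8.48% and 10.8% of all tested genes. In the fit without the block, 5 members (5.43%) had an unadjusted p under 0.05, against 23.8% of all tested genes. Their median over all 92 was 0.06 beside -0.01 for all tested genes, and DESeq2 called 1 member higher.

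**Figure D4:**
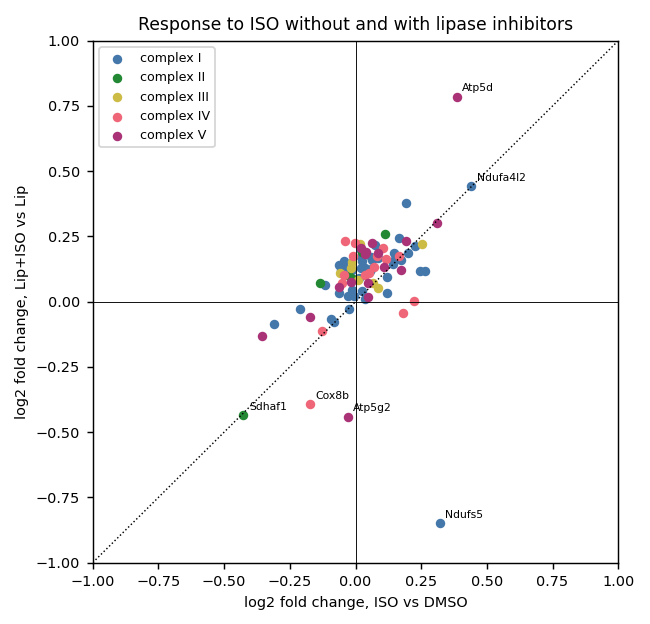
Log2 fold change of 91 tested members with ISO without inhibitors (horizontal axis) and with inhibitors (vertical axis), coloured by complex, with the line of equal change dotted. Most members lie close to the origin and above the dotted line, Atp5d lies apart at 0.39 and 0.78, and Sdhaf1 lies near the line at -0.43 and -0.44.

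When the response without inhibitors was subtracted from that with them, the difference was above 0 for 72 of the 92 members (78.3%). Over all tested genes this share was 47.3%, and the medians were 0.09 for the members and -0.02 for all tested genes. No member was called for this difference, where 0.901% of all tested genes were called higher and 0.724% lower. Of the members, 2 (2.17%) had an unadjusted p under 0.05, Atp5d among them, against 13.8% of all tested genes. DESeq2 also called no member. Both responses rest on separate libraries, and across the 92 members they had a Pearson r of 0.436 and a Spearman rho of 0.505, against 0.72 and 0.671 across all 13543 tested genes. These are given as descriptions, since genes are not independent replicates.

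Libraries of the groups compared were also checked for overlap. With ISO alone, all 3 stimulated libraries lay above all 3 controls for 12 members (13.0%, against 20.7% of all tested genes) and below them for 2 (22.6%). With inhibitors the numbers were 29 above (31.5%, against 17.2%) and 2 below (22.0%), the latter being Sdhaf1 and Cox8b. For Lip against DMSO they were 0 above (5.19%) and 6 below (5.21%), and for Lip+ISO against ISO 8 above (11.9%) and 1 below (13.5%).

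Some known regulators of these genes rose with ISO. Ppargc1a was at 6.03, 7.85 and 9.71 CPM in DMSO and 94.9, 89.95 and 140 CPM in ISO, a 13.8-fold rise (log2 3.79 ± 0.20, adjusted p = 7.8e-08). With inhibitors it went from 7.52, 8.02 and 8.30 CPM to 136, 117 and 141 CPM, a 16.5-fold rise (log2 4.04 ± 0.20, adjusted p = 1.6e-08). Of the 15 listed regulators of mitochondrial genes, 3 rose with ISO alone (Ppargc1a, Esrra by 0.35 and Gabpb1 by 0.64, all log2) and none fell. These 3 are 20% of the list, against 12.3% of all tested genes, and with the block 4 rose and 2, Polrmt and Tfam, fell. In Lip+ISO against Lip, 4 rose (26.7%, against 11.5%), namely Ppargc1a, Gabpb1 (13.6 to 29.2 CPM), Yy1 (by 0.46 on the log2 scale) and Nrf1 (by 0.30). In the same comparison the mitochondrial transcription factors Tfam and Tfb1m fell by 0.40 and 0.77 on the log2 scale, so that 13.3% of the list was lower against 15.8% of all tested genes, and 4 were lower with the block. Between Lip+ISO and ISO, Gabpb1 and Yy1 were higher (13.3%, against 4.36%) and Ppargc1b, a relative of Ppargc1a, was lower by a log2 fold change of -1.75 (6.67%, against 4.59%). With the block Pprc1 was lower as well, where 10.8% of all tested genes were lower. For the difference of both ISO responses, 0 regulators were called without the block. With it Gabpb1 and Yy1 were higher and Ppargc1b lower, against 3.15% and 3.48% of all tested genes.

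Other genes around the chain were called in both directions. Of 24 tested assembly factors that the symbols do not cover, 5 fell with ISO (Sco1, Cox15, Taco1, Acad9 and Tmem126b) and none rose, with a median of -0.12, and with inhibitors 2 fell (Cox15 and Taco1). The share that fell was 20.8% with ISO alone, against 13.9% of all tested genes, and 8.33% with inhibitors, against 15.8%. The block gave 7 and 4 lower, against 19.6% and 20.1% of all tested genes. Cox15, which makes heme a for complex IV, went from 54.8 CPM in DMSO to 39.8 CPM in ISO (log2 -0.46 ± 0.09, adjusted p = 0.00252). Taco1, a translational activator of the mitochondrial Cox1 mRNA, went from 23.9 to 16.4 CPM (log2 -0.54 ± 0.10, adjusted p = 0.00188). Among 12 genes of ubiquinone synthesis, Coq10b rose from 51.6 to 104 CPM (log2 1.01 ± 0.08), Adck3 fell from 24.1 to 13.4 CPM (log2 -0.85 ± 0.20), and 2 more fell. None of 13 genes of the tricarboxylic acid cycle was called with ISO alone. With inhibitors present 2, Dlst and Dld, rose (15.4%, against 11.5% of all tested genes), with a median of 0.13 over the 13. With the block 1 (Idh3a) and 4 of them rose, against 18.8% and 15.5% of all tested genes.

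**Figure D5:**
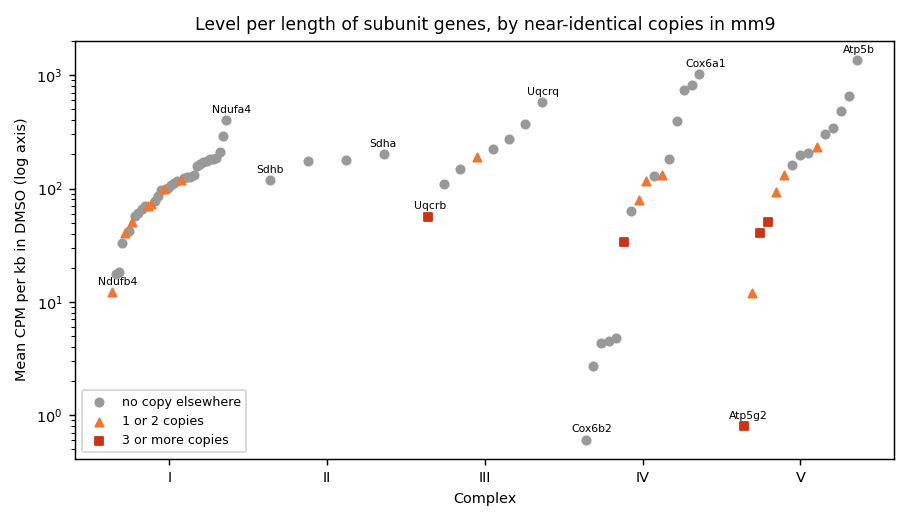
Mean CPM per kb of counted length in DMSO (vertical log axis) of the subunit genes of each complex, ordered by level, with at least 100 bp counted. Symbols mark how many near-identical copies of the coding sequence lie elsewhere in mm9. The highest is Atp5b at 1369 CPM per kb, and the genes with 3 or more copies lie at or below 56.4 CPM per kb.

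Levels between genes can be compared only per length. On CPM per kb of counted length in DMSO, Atp5b was highest with 1369, followed by Cox6a1 with 1020, Cox4i1 with 814, Cox8a with 738, Atp5g3 with 661 and Uqcrq with 579. Median levels per kb were 107 for complex I, 177 for complex II, 207 for complex III, 71.7 for complex IV with its low isoforms and 198 for complex V. Among DMSO libraries the coefficient of variation of a member had a median of 6.23%. Many subunit genes have processed pseudogenes, and reads that fit several places may be lost or split. The 62 subunit genes without a copy of at least 95% identity over at least 80% of the coding sequence had a median of 153 CPM per kb, the 16 with 1 or 2 copies 86.4, and the 5 with 3 or more (Atp5l, Cox7c, Atp5h, Uqcrb and Atp5g2) 40.9. Levels of genes with copies are therefore uncertain, and Ndufs5 was counted over only 25 bp.

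Promoters were searched for the motifs of the known regulators, from 250 bases before to 50 bases after the start of each gene in mm9, on both strands. The NRF1 motif, GCGCA and GCGC with any base between them, was found in 18 of 94 members (19.1%) and in 6.75% of all 20295 genes. The ETS core bound by GABP, CCGGAAG, was found in 20 members (21.3%) and 12.2% of all genes, and the ERR motif TCAAGGTCA in 2 members (2.13%) and 0.33%. The full cAMP response element TGACGTCA was found in 4 members (4.26%) and 2.53% of all genes, and its core TGACG, which is also counted within the full element, in 36 (38.3%) and 24.9%. Such a match is a description of the sequence and not a measured site.

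The promoters of the pair of genes called with and without inhibitors in the fit without the block are printed to show how they differ. For each, 250 bases before and 25 bases after the start are given 5′ to 3′ on the strand of the gene, with motif matches in capitals. Atp5d (chr10:79604810-79605084, plus strand) has no match to any of the motifs, and Sdhaf1 (chr7:31107370-31107644, minus strand) has the reverse complement of the ETS core just after its start.
Atp5d: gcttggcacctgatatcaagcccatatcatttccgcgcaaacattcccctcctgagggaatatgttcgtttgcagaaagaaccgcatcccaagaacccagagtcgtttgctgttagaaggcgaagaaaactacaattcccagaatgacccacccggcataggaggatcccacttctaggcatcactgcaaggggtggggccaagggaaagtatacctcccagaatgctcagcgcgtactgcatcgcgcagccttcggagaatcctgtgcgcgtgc
Sdhaf1: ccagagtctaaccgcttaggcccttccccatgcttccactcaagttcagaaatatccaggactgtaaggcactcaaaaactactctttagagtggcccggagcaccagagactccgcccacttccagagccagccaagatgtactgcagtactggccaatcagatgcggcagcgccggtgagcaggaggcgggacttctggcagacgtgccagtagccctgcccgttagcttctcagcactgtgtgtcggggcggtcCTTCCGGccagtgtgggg

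A full cAMP response element, the element bound by CREB downstream of β-adrenergic receptors, is printed with its surroundings for the 4 members that hold it, in capitals within 60 bases of the gene's strand. The windows are at chr1:94370369-94370428 (Ndufa10, minus strand), chr13:30637181-30637240 (Uqcrfs1, minus strand), chr6:39542524-39542583 (Ndufb2, plus strand) and chr17:56857001-56857060 (Ndufa11, plus strand).
Ndufa10: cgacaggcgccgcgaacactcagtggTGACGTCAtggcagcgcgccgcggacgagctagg
Uqcrfs1: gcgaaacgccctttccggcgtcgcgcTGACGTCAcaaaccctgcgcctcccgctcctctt
Ndufb2: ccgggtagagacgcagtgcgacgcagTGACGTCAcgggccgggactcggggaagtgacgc
Ndufa11: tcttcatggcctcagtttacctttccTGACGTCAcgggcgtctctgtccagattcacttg
Their log2 fold changes with ISO were -0.04, -0.06, 0.17 and 0.15 in this order, and 0.12, 0.11, 0.24 and 0.19 with inhibitors present, of which only that of Ndufb2 with inhibitors passed the test. With the block, Ndufb2 passed in both settings and Ndufa11 with inhibitors (adjusted p = 0.0319). The ERR motif is shown for Atp5g3 (chr2:73749401-73749460, minus strand), as its reverse complement in capitals.
Atp5g3: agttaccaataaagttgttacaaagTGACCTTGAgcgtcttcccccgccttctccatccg
Atp5g3 had log2 fold changes of 0.09 ± 0.08 with ISO and 0.19 ± 0.08 with ISO in the presence of inhibitors (adjusted p = 0.0905). Of the 18 members with an NRF1 motif, 0 were called with ISO and 1 rose with inhibitors present, with medians of 0.06 and 0.11. Of the 20 with an ETS core, 1 fell with ISO, and 2 rose and 1 fell with inhibitors present, with medians of 0.02 and 0.12. Over all tested members these medians were 0.04 and 0.12, and of all tested genes 12.3% rose and 13.9% fell with ISO, and 11.5% and 15.8% with inhibitors present. Of the 35 tested members with the core TGACG, 0 were called with ISO and 4 rose with inhibitors present, with medians of 0.01 and 0.15. The block gave 1 and 3 higher among members with an NRF1 motif, and 3 higher in Lip+ISO against Lip among those with an ETS core. Among those with the core TGACG it gave 3 higher and 1 lower with ISO, and 6 higher with inhibitors present. Of all tested genes, 18.8% and 15.5% were higher with the block, and 19.6% and 20.1% lower.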

How the data were processed

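The authors deposited 1 table of raw counts per gene for the 12 libraries, with the length of each gene. According to the study's methods and the submitters' processing notes, reads were mapped with STAR 2.4.2a to mm9, tags were summed per gene with HOMER, which kept 1 read for each position and read length, and gene counts were made with iRNA-seq. Keeping 1 read per position can lower the counts of abundant and short genes, and its effect here was not tested. Whether strand was used is not given in the sources used here. Because strand use is unknown, genes that overlap on opposite strands are uncertain, as are genes with near-identical copies. No column was left unused (0).

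Counts were analysed in R 4.3.3 with edgeR 4.0.16 (TMM factors 0.924 to 1.07, filterByExpr, 13543 genes kept, quasi-likelihood F-test on all 12 libraries with 1 mean per group, Benjamini-Hochberg over all tested genes). Common biological variation was 0.163. Same-numbered libraries had correlated deviations from their group means, with r of 0.139 to 0.331 for ISO and DMSO, 0.192 to 0.298 for Lip+ISO and Lip, 0.197 to 0.369 for Lip and DMSO, and 0.0373 to 0.311 for Lip+ISO and ISO. By the rule that every r exceeds 0.1, the numbers were taken to pair the first 3 of these comparisons. This rests on the data and not on the labels. For Lip+ISO and ISO, 2 of 3 pairs exceeded 0.1, which does not show that these libraries were unpaired. Both fits are therefore given for this comparison. Blocked values are given where they change the call of a member, and in part for the other lists. Contrasts were ISO with DMSO, Lip+ISO with Lip, Lip with DMSO, Lip+ISO with ISO, and the difference of both ISO responses. The test was checked on simulated data with known changes. DESeq2 1.42.0, other scaling, no filter, a fold minimum, the replicate block and leave-outs were alternatives. Copies were searched with BLAST+ against mm9, and summaries were made in Python.

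The members, lists, motifs and tests were chosen with earlier results of these data known. Genes were named by rule: isoform sets, core subunits, and up to 5 called members per direction and contrast. Atp5f1 and Uqcrh were named beyond these, after their values were seen, as were low genes, the neighbouring genes and single genes of the other lists. Values of 1 member are not reported here, and it is not drawn in the plots, but it is part of the counts and medians.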

Additional observations from a re-analysis of the deposited data

How the results depend on the processing

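The members' median log2 fold change in Lip+ISO vs Lip, 0.12, became 0.013 when scaled by library totals alone. With that scaling the median of all tested genes was -0.12, beside -0.00 in the main fit, so both medians were lower. The members' median ranged from 0.10 to 0.20 when libraries were left out. The other medians were close to 0. With left-out libraries that of ISO vs DMSO ranged from -0.01 to 0.08, that of Lip vs DMSO from -0.07 to 0.00, that of Lip+ISO vs ISO from -0.02 (without replicate 3) to 0.17 (without replicate 1), and that of the difference of both ISO responses from 0.01 to 0.15. Counts of called members depended more on the setting, and the cause was not tested. Calls over all tested genes were counted only for the main fit, its fold minimum and the replicate block. The other counts therefore have no share of all genes beside them. With ISO alone, the 1 member higher became 2 with RLE size factors or with only the groups compared, 5 with DESeq2 and 0 with a fold minimum, and ranged from 0 to 4 when libraries were left out. The 1 lower became 2 with library totals and 0 with a fold minimum, and ranged from 0 to 2. In Lip+ISO vs Lip, the 7 higher became 15 with RLE, 2 with library totals, 3 without the filter, 21 with DESeq2, 3 with only the groups compared and 0 with a fold minimum. Left-out libraries gave 1 to 23, with 23 without Lip+ISO replicate 1, 15 without replicate 1 of every group and 1 without replicate 2 or 3 of every group. The 1 lower became 0 with a fold minimum and ranged from 0 to 1. In Lip+ISO vs ISO, the 0 higher became 1 with RLE, library totals or DESeq2 and ranged from 0 to 2, and the 1 lower became 0 with RLE, without the filter, with only the groups compared or with a fold minimum, and ranged from 0 to 1.

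With the replicate number as a block, 6 members were higher and 2 lower with ISO and 11 and 1 in Lip+ISO vs Lip, and none was called in Lip vs DMSO or for the difference of both ISO responses, as without it. In Lip+ISO vs ISO, where the numbers did not meet the rule for pairing, the block gave 2 and 2, against 8.48% and 10.8% of all tested genes. Atp5d was among those higher, and Ndufa4l2 and Ndufaf4 were lower. All 12 libraries correlated best with their own number.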
